A study of Mus musculus with 6 samples.

Results

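The genes described here are the translation initiation and elongation factors of the mouse 2-cell embryo, taken as every protein-coding gene whose symbol starts with Eif or Eef followed by a digit. This gave 68 of the 53023 genes in the deposited expression table. A further 9 symbols fit the pattern but are 8 processed pseudogenes and 1 lincRNA (Eif2c5), and were left out. Of the 68 genes, 65 passed the filter on low values, an FPKM of 1 or more in 2 or more libraries, where FPKM is the number of sequenced fragments of a gene scaled to its length and to the depth of the library. The other 3 were Eef1a2 and Eif4ebp3, with 0 fragments in every library, and Eef2kmt, with from 0 to 3 fragments. A count of 0 here is under a limit of detection of 3 fragments and does not show that a transcript was absent. For Eif4ebp3, 67.3% of the length is shared with exons of Ankhd1 on the same strand. Whether its reads were left unassigned was not tested.

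Translation starts when eIF2 brings the initiator tRNA to the small ribosomal subunit, with eIF3 as the scaffold of this complex and eIF1 and eIF1A guarding the choice of the start codon. eIF4E binds the cap of the mRNA, eIF4G and the helicase eIF4A connect it to the ribosome, and eIF5 and eIF5B complete the joining of the large subunit. eIF2B reloads eIF2 with GTP, and the eIF2 kinases stop that step under stress. eEF1 delivers aminoacyl-tRNAs during elongation and eEF2 moves the ribosome along the mRNA. The 2-cell mouse embryo is the stage at which maternal mRNAs are lost and the embryonic genome is switched on, so transcripts of these factors can come from both sources.

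The study asked what an excess of PIASy (gene Pias4), a SUMO ligase held by the oocyte, does to transcription at this stage. Embryos of the ICR strain formed 3 groups with 2 libraries each: non-injection embryos, embryos injected with mRNA for PIASy-Mut, which carries the change C335F in the RING finger needed for SUMO ligase activity, and embryos given mRNA for PIASy-WT, the wild-type protein. Both injected proteins were fused to the fluorescent protein mCherry and an HA tag. Both mRNAs were given to the cytoplasm at 100 ng/µl from 1.5 to 3 h after insemination. Embryos with a fluorescent signal were selected at 9 h. All embryos were cultured and collected at 28 h post insemination, with 5 embryos pooled per library. The non-injection embryos received no mRNA, so the PIASy-Mut embryos are the only injected control among these libraries. The study presents the 2 libraries of a group as biological replicates. Whether they came from separate fertilizations is not stated in the sources used here, and P-values measure the spread between these libraries.

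Each library held from 871663 to 1363928 fragments on genes, and FPKM values are shares of a library, so total RNA per embryo was not compared. At least 10 fragments were present for 57 to 62 of the 68 genes in a library. Pias4 was at 2.98 and 3.59 FPKM in non-injection embryos, at 862 and 611 in PIASy-Mut embryos and at 610 and 579 in PIASy-WT embryos, which separates the injected from the non-injection embryos and does not tell PIASy-WT from PIASy-Mut. Of 5 markers of 2-cell embryos, Zscan4d, Tcstv1, Tcstv3 and Zfp352 had an FPKM of at least 61.4 in every library. The 5 summed to 1243 and 877 CPM (fragments of a gene scaled to a common library total, not to gene length) in PIASy-WT and to between 1635 and 1963 elsewhere, and 1 of them, Tcstv3, fell against PIASy-Mut. Among 7 cumulus cell markers, Inhba had 0 fragments in every library and the list summed to between 5.13 and 17.4 CPM. The 4 blastocyst lineage markers summed to 24.1 and 26.1 in PIASy-WT and to between 1.47 and 11.5 elsewhere. Of them, 1 (Krt18) rose against non-injection, with 20 and 12 fragments in PIASy-WT and 2 and 2 in non-injection. The latter are under the limit of detection of 3 fragments. The part of these markers in the results that follow was not tested.

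The upstream sequences of 4 genes are shown because the results turn on them. Eif3c and Eif3g are the eIF3 subunit genes with the largest falls in PIASy-WT embryos, and Eif2b4 and Eif2b1 are subunits of eIF2B of which the first fell and the second did not pass the test. Each is the 250 bases before the start of the gene in RefSeq (build GRCm38.p6), written 5′ to 3′ on the strand of the gene. They lie at chr7:126566367-126566616, minus strand, for Eif3c, chr9:20898591-20898840, minus strand, for Eif3g, chr5:31193140-31193389, minus strand, for Eif2b4 and chr5:124579132-124579381, minus strand, for Eif2b1. Capitals mark matches on either strand to GGGCGG (SP1 box), CCGGAAG (ETS core) and CCAAT.
Eif3c: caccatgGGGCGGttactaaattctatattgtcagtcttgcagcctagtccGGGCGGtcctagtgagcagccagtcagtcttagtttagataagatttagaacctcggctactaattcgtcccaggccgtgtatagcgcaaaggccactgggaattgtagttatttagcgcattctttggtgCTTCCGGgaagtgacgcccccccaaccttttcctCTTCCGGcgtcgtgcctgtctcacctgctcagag
Eif3g: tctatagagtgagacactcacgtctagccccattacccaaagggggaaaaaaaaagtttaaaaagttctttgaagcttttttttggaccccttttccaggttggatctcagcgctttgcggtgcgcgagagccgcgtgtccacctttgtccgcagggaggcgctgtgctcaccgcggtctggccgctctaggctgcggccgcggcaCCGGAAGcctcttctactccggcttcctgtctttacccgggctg
Eif2b4: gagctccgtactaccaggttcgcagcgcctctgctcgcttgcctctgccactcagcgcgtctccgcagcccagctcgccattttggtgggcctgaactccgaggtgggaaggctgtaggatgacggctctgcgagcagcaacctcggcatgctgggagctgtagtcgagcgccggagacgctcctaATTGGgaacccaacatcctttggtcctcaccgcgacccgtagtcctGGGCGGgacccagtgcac
Eif2b1: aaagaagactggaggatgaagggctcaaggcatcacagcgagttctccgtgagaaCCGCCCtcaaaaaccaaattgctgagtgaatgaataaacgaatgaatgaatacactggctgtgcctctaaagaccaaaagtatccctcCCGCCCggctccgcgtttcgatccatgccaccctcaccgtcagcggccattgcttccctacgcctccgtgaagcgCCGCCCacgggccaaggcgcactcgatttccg
The Eif3c sequence holds both GGGCGG and CCGGAAG matches, Eif3g holds 1 match to CCGGAAG, Eif2b4 holds 1 to CCAAT and 1 to GGGCGG, and Eif2b1 holds 3 to GGGCGG. No match shown overlaps another.

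RefSeq upstream sequences were at hand for 52 of the 68 genes, of which 9 fell in PIASy-WT against non-injection and 43 did not, 2 of them (Eef1a2 and Eef2kmt) because they were not tested. A GGGCGG match was present in 38 of the 52, in 7 of the 9 and in 31 of the 43, and in 32.7% of all 32851 RefSeq upstream sequences of the same length. CCGGAAG was present in 12 of the 52, in 3 of the 9 and in 9 of the 43, and in 6.91% of all. CCAAT was present in 16 of the 52, in 3 of the 9 and in 13 of the 43, and in 33.8% of all. The TATA box (TATAAA) was found in 5 of the 52 against 12.4% of all, and the E-box (CACGTG) in 12 of the 52 against 6.02%. The median GC content was 59.6% over the 52 genes, 56.4% over the 9, 60% over the 43 and 52.4% over all. A gene counted if any of its upstream sequences held a match, whereas each of the 32851 sequences was counted singly. Genes with several sequences had more chances to match, so these shares are not like for like. The counts are of matches of letters only, and no test was made on them.

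In PIASy-WT embryos, 14 of the 65 genes tested fell against non-injection and 0 rose. They were led by subunits of eIF3 (Eif3a, Eif3c, Eif3e, Eif3f, Eif3g, Eif3h and Eif3m) and included Eif2s1, Eif2b4, Eif4a3, Eif6, Eef1d and the elongation factor methyltransferases Eef1akmt1 and Eef1akmt4. A gene was counted as passing at an adjusted P of at most 0.05 by limma on log2(FPKM + 1), fitted on all 6 libraries and 16100 genes with Benjamini-Hochberg adjustment. Log2 fold changes on this scale understate the change of low genes. Over all 16100 genes, 5.76% fell in the same comparison and 1.03% rose. Of the 8282 genes that reached an FPKM of 5 in 2 or more libraries, fitted alone, 17.4% fell, as did 21 of the 56 translation factor genes among them. Falls of 2 or more on the log2 scale were reached by 9 of the 65, against 3.81% of all genes. Among the genes that passed these were 9 of 14, and 614 of 928 over all genes. The median log2 fold change of the 65 genes was -0.71 and that of all genes was 0.01. At an unadjusted P under 0.05, 27 of the 65 were lower and 1 was higher, against 17.6% and 10.6% of all genes. By voom on fragment counts 21 were lower and 1 was higher, against 11.8% and 5.11%. As each library is a pool of whole embryos, fewer cells with a transcript and less transcript per cell cannot be told apart.

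Against PIASy-Mut, 10 of the 65 genes fell and 0 rose in PIASy-WT. These were Eif3a, Eif3c, Eif3g, Eif3h, Eif2s1, Eif2b4, Eif4a3, Eif6, Eef1akmt1 and Eif1ad. Over all genes, 6.01% fell and 0.82% rose. In the fit limited to genes that reached an FPKM of 5, 17.9% of these genes and 19 of the 56 fell. Falls of 2 or more on the log2 scale were reached by 7 of the 65, against 4.06% of all genes, and by 7 of the 10 that passed, against 653 of 968 over all genes. The median log2 fold change was -0.62 for the 65 genes and -0.03 for all genes. At an unadjusted P under 0.05, 28 were lower and 2 were higher, against 18.2% and 9.46% of all genes. By voom 20 were lower and 1 was higher, against 11.6% and 3.37%. Below, whether a gene fell or passed refers to limma unless voom is named. This comparison and the one with non-injection use the same PIASy-WT libraries, so their values are set side by side below and are not counted as support for each other.

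Between PIASy-Mut and non-injection, 0 of the 65 genes passed limma in either direction. None had an unadjusted P under 0.05, and voom also gave 0. Over all genes, 0% fell and 0.00621% rose, the latter being Pias4 alone. The log2 fold changes of the 65 genes ran from -0.66 to 0.58 with a median of 0.06, against 0.04 for all genes. This does not show that the groups were alike, as only 2 libraries stood on each side.

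Both PIASy-WT libraries lay below all 4 other libraries for 41 of the 65 genes and above them for 3. The share of all genes was 24.4% below and 19.9% above. All 14 genes that fell against non-injection were among the 41. When either non-injection library or either PIASy-WT library was left out, 0 of these genes and 0 of all genes fell at the threshold against non-injection. At an unadjusted P under 0.05, 22 of 64 and 19 of 65 were lower without non-injection 1 and 2, and 20 and 23 of 65 without PIASy-WT 1 and 2, against 11.5% to 14.3% of all genes. In such fits the spread comes from the other groups alone, and the lone library is assumed to vary like them. Against PIASy-Mut, the calls of these genes and of all genes alike were lost without any library other than PIASy-Mut 2. The median log2 fold change of these genes against PIASy-Mut was -0.56 without PIASy-Mut 1 and -0.71 without PIASy-Mut 2. Over all genes it was -0.06 and -0.02. Fitting the 4 PIASy-Mut and PIASy-WT libraries alone left 0 against PIASy-Mut, where 0% of all genes fell. Without the filter on low values 0 fell against non-injection, where 0.553% of all genes did, and 1 against PIASy-Mut, where 0.873% did.

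**Figure D1:**
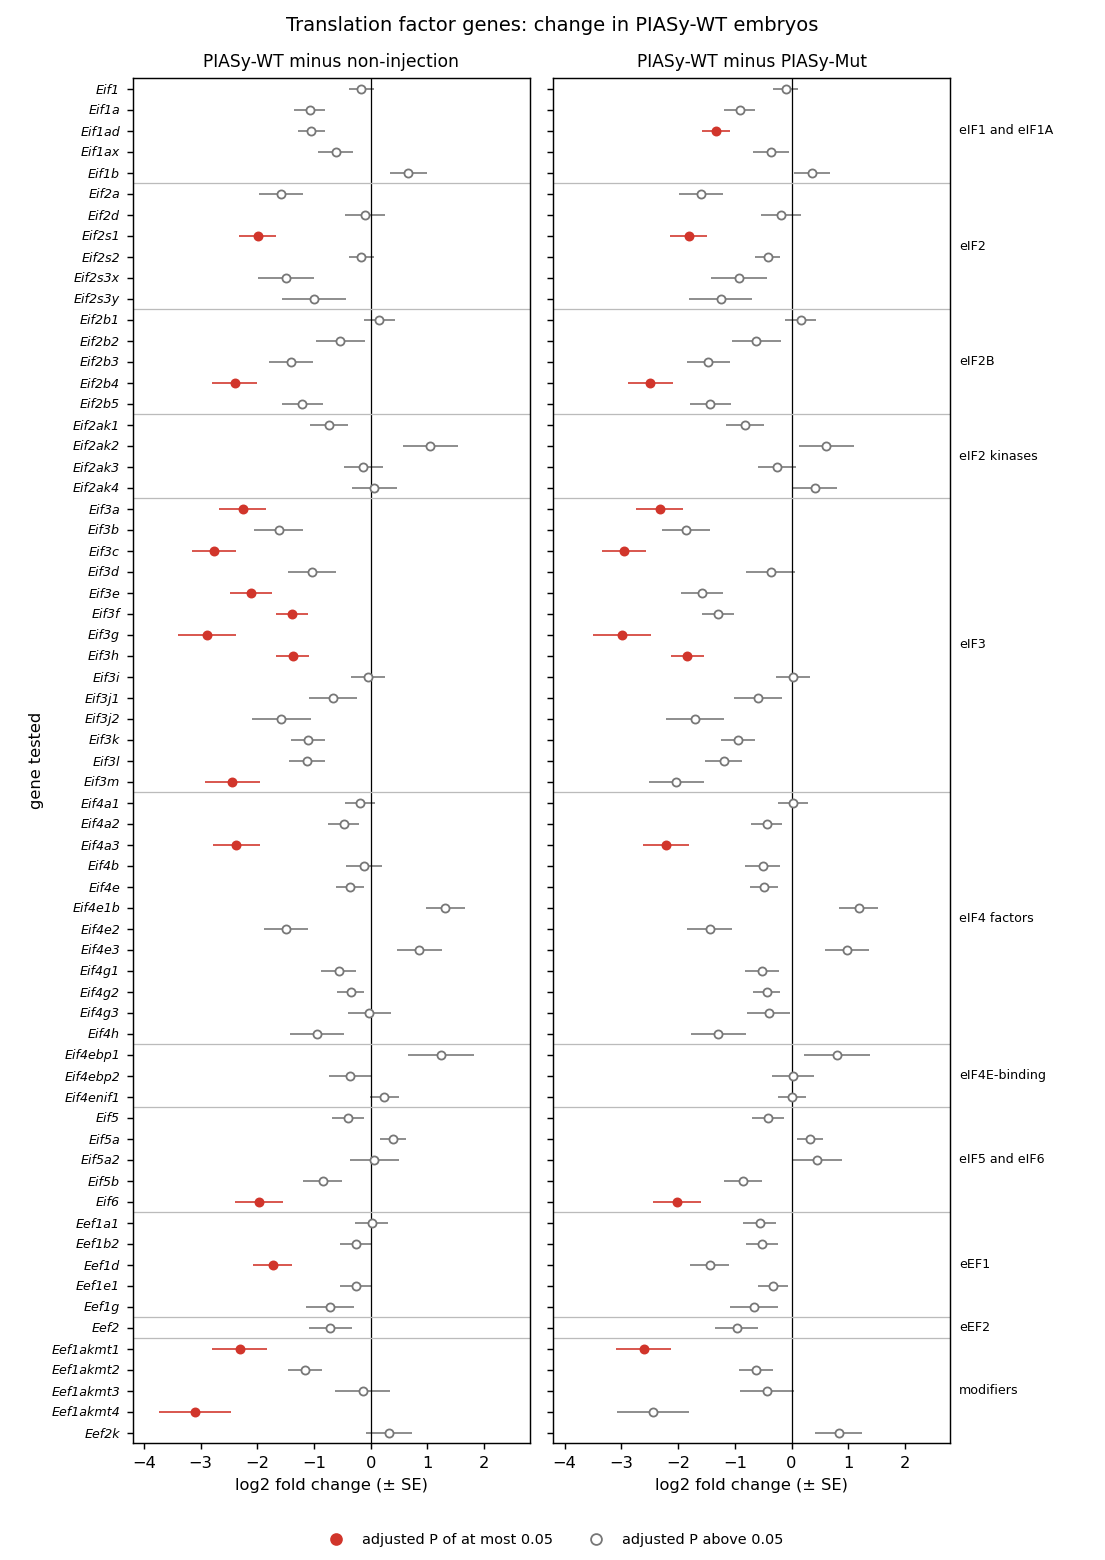
Log2 fold change (x axis, on the log2(FPKM + 1) scale) of the 65 genes tested (y axis, grouped by class), in PIASy-WT against non-injection on the left and against PIASy-Mut on the right. Points are limma estimates and bars are ± 1 SE, with filled red points for an adjusted P of at most 0.05; the 14 filled points on the left and the 10 on the right are all below 0.

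eIF3 is the largest initiation factor, and its subunits made the largest class, with 14 genes. Of these, 7 fell against non-injection and 4 against PIASy-Mut, and none rose, where 5.76% and 6.01% of all genes fell and 1.03% and 0.82% rose. The same shares of all genes stand behind the count of each class that follows. The summed level of the class was 1320 and 1523 CPM in non-injection embryos, 1893 and 1107 in PIASy-Mut embryos and 515 and 445 in PIASy-WT embryos. Both PIASy-WT libraries were thus well under the other 4, although the PIASy-Mut libraries differed from each other by more than the non-injection libraries did. Relative to non-injection and PIASy-Mut, the 14 genes had median log2 fold changes of -1.48 and -1.64.

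Eif3g, an RNA-binding subunit at the mRNA entry side of the complex, was at 48.8 and 46.8 FPKM in non-injection embryos, at 87.9 and 29.5 in PIASy-Mut embryos and at 6.46 and 4.82 in PIASy-WT embryos. Both PIASy-WT values were under all others, while the PIASy-Mut libraries differed widely from each other. The log2 fold change was -2.89 ± 0.51 (SE; adjusted P=0.0351) relative to non-injection and -2.98 ± 0.51 (adjusted P=0.0325) against PIASy-Mut. Eif3c, a core subunit that contacts eIF1 and eIF5, had FPKM values of 30.1 and 49.4, 54.1 and 35.6, and 3.87 and 5.95 in the same order of groups. Its mean FPKM in PIASy-WT embryos was 8.09-fold under that of non-injection and 9.14-fold under that of PIASy-Mut, with log2 fold changes of -2.77 ± 0.38 (adjusted P=0.0275) and -2.95 ± 0.38 (adjusted P=0.024). These were the lowest adjusted P of any of the 65 genes in both comparisons.

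Eif3a, the largest subunit and the scaffold of the core, was at 63.6 and 72.4 FPKM in non-injection embryos, at 108 and 46.5 in PIASy-Mut embryos and at 13.8 and 12.9 in PIASy-WT embryos. It fell by 2.26 on the log2 scale against non-injection (adjusted P=0.0372) and fell by 2.32 against PIASy-Mut (adjusted P=0.0343). Eif3h had FPKM values of 84.1 and 118, then 157 and 120, and 42.6 and 33.5, and was the subunit gene with the highest mean level. Its log2 fold change was -1.38 ± 0.29 (adjusted P=0.0482) relative to non-injection and -1.84 ± 0.29 (adjusted P=0.0293) against PIASy-Mut. Of its sequence, 20.3% in windows of 50 bases also occurs elsewhere among the annotated transcripts. Eif3e, Eif3f and Eif3m, further core subunits, passed against non-injection with adjusted P=0.0348, 0.045 and 0.0427, while against PIASy-Mut they had adjusted P=0.0592, 0.0511 and 0.06. Both PIASy-WT values of all 3 genes were under those of the other 4 libraries, and whether the fold changes differ between the comparisons was not tested. Eif3m, for example, had FPKM values of 20.4 and 38.2, 29.6 and 14.6, and 5.53 and 3.36.

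Among the other subunits, chosen here after their values were seen, Eif3i was the exception in level. Eif3i, a propeller-shaped subunit bound to Eif3b and Eif3g, was at 45.9 and 42.3 FPKM in non-injection embryos, at 52.1 and 33.2 in PIASy-Mut embryos and at 47.1 and 38.3 in PIASy-WT embryos. Its log2 fold change was -0.05 ± 0.30 relative to non-injection and 0.03 ± 0.30 against PIASy-Mut, and the PIASy-WT values lay among the others. Its rank by FPKM was between 4 and 6 among the 14 subunit genes in the 4 other libraries and 1 in both PIASy-WT libraries. The ratio of Eif3c to Eif3i was from 0.654 to 1.17 in the 4 other libraries and 0.0822 and 0.155 in PIASy-WT. For Eif3g over Eif3i the ratio was from 0.889 to 1.69 against 0.137 and 0.126. These pairs were picked after their values were seen, and the PIASy-WT ratios did not overlap with those of the other 4 libraries. The ratios restate the fold changes of genes that fell beside Eif3i, which did not, and no test was made on them.

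The 8 subunits of the structural core of eIF3 (a, c, e, f, h, k, l and m) had log2 fold changes from -2.77 to -1.11 against non-injection, with 6 of the 8 passing (5.76% of all genes fell), and from -2.95 to -0.95 against PIASy-Mut, with 3 passing (6.01% of all genes). In all 8 both PIASy-WT libraries were below the other 4, as they were for 24.4% of all genes. Eif3k and Eif3l, core subunits that bind each other, did not pass limma in either comparison (adjusted P=0.0791 and 0.0881 against non-injection). By voom Eif3k was lower against non-injection (adjusted P=0.0406) and did not pass against PIASy-Mut (adjusted P=0.0822). Eif3l passed voom in neither comparison (adjusted P=0.0819 and 0.0775). Eif3b had FPKM values of 9.42 and 8.72, 14.8 and 7.89, and 1.58 and 3.12, with adjusted P=0.0729 and 0.0568 by limma. By voom Eif3b was lower with adjusted P=0.0314 and 0.0202. Eif3d had from 5 to 16 fragments per library, and 37.2% of its sequence in windows of 50 bases occurs in other transcripts. Its values were 1.98 and 2.28 in PIASy-WT and 2.54 to 7.41 in the other libraries. They are uncertain, and the gene did not pass. Eif3j is a loosely bound subunit with the copies Eif3j1 and Eif3j2. Eif3j2 had FPKM values of 21.9 and 11.9, 28.1 and 11.1, and 4.12 and 5.49, and Eif3j1 of 7.8 and 5.01, 8.31 and 4.13, and 3.75 and 3.43. Neither passed, and 91.8% and 50.9% of their sequence in windows of 50 bases occurs elsewhere, so the split of reads between the copies is uncertain.

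**Figure D2:**
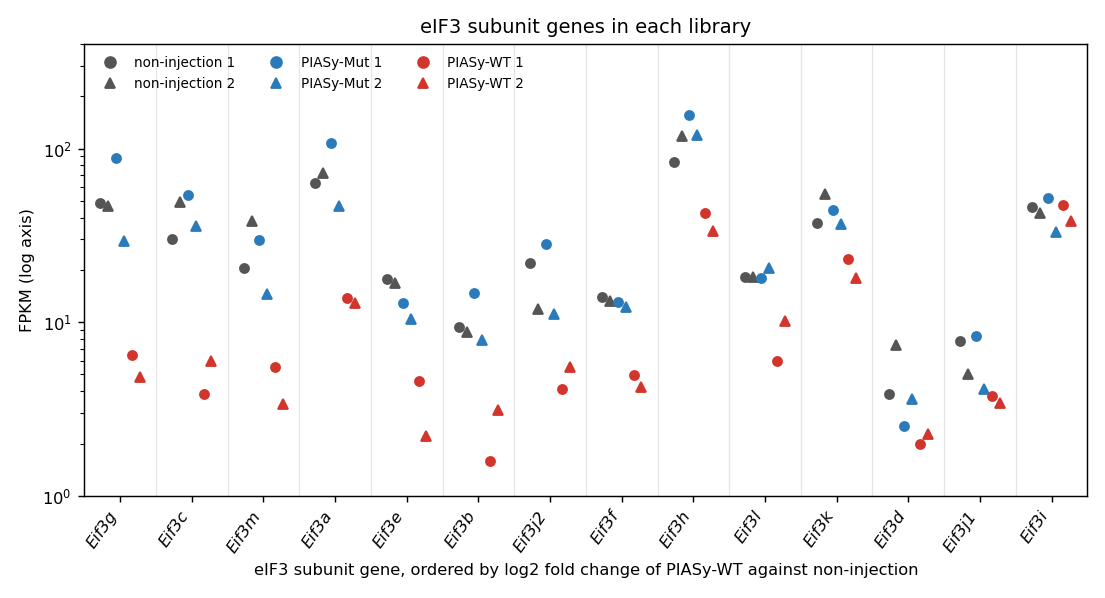
FPKM of the 14 eIF3 subunit genes (x axis) in each of the 6 libraries on a log axis; grey is non-injection, blue PIASy-Mut and red PIASy-WT, and circles and triangles are libraries 1 and 2. The red points lie under all others for every gene except Eif3i on the far right, whose red points at 47.1 and 38.3 sit among the rest.

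eIF2 holds the initiator tRNA and has 3 subunits, alpha (Eif2s1), beta (Eif2s2) and gamma (Eif2s3x and Eif2s3y). Eif2s1, whose protein is the target of the eIF2 kinases, was at 74.3 and 91.8 FPKM in non-injection embryos, at 95.1 and 55.6 in PIASy-Mut embryos and at 18.1 and 22 in PIASy-WT embryos. It fell by 2.00 on the log2 scale against non-injection (SE 0.33, adjusted P=0.0327) and fell by 1.81 against PIASy-Mut (adjusted P=0.0355), with no overlap between PIASy-WT and the others. Eif2s2 had FPKM values of 45.6 and 51.1, 58.4 and 57.2, and 42.1 and 43.7, with log2 fold changes of -0.17 ± 0.23 and -0.42 ± 0.23 and no call. The ratio of Eif2s1 to Eif2s2 was from 0.972 to 1.80 in the 4 other libraries and 0.431 and 0.503 in PIASy-WT. The gamma genes on the X and Y chromosomes were low in every library. Eif2s3x went from an FPKM of 6.92 and 5.34 and of 5.08 and 2.71 to 0.792 and 2.51. Eif2s3y went from 7.05 and 8.5 and 15.6 and 5.51 to 2.18 and 5.02. Neither passed limma (adjusted P=0.114 and 0.293 against non-injection). By voom Eif2s3x was lower against non-injection (adjusted P=0.0446) and not against PIASy-Mut (adjusted P=0.197). As 34.6% of the Eif2s3x sequence in windows of 50 bases occurs elsewhere, the level of this gene is uncertain. The sex of the embryos pooled is not given by the labels.

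The factors Eif2a and Eif2d bind initiator tRNA outside the eIF2 complex. Eif2a had FPKM values of 25.8 and 28.2, 39.4 and 18.8, and 8.76 and 7.96, and missed the threshold of limma with adjusted P=0.0644 and 0.0624. By voom Eif2a was lower with adjusted P=0.0108 and 0.0115. Eif2d had values of 10.8 and 7.32, 10.1 and 9.02, and 6.65 and 10.3, where the groups overlapped. Over the class of 6 genes, 1 fell by limma in each comparison and none rose.

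eIF2B, the exchange factor of eIF2, is built from alpha, beta, gamma, delta and epsilon subunits (Eif2b1 to Eif2b5). Eif2b4, the delta subunit, was at 23.7 and 35 FPKM in non-injection embryos, at 37.3 and 25.6 in PIASy-Mut embryos and at 6.39 and 3.35 in PIASy-WT embryos. It fell by 2.40 on the log2 scale against non-injection (SE 0.40, adjusted P=0.0327) and fell by 2.49 against PIASy-Mut (adjusted P=0.0293). Eif2b1, the alpha subunit and the most abundant of the 5, stayed within the range of the other libraries or above it, with an FPKM of 145 and 103, 112 and 132, and 150 and 123, and log2 fold changes of 0.15 ± 0.27 and 0.16 ± 0.27. Eif2b1 made up from 62.2% to 76.6% of the summed FPKM of the 5 genes in the other libraries and 90.9% and 86.7% in PIASy-WT. Eif2b3 and Eif2b5, the subunits of the catalytic part, had log2 fold changes of -1.40 and -1.21 against non-injection and did not pass limma (adjusted P=0.0799 and 0.0965). By voom Eif2b3 was lower with adjusted P=0.0229 against non-injection and 0.0214 against PIASy-Mut. Eif2b5 did not pass voom in either comparison (adjusted P=0.101 and 0.0672). Eif2b2, the beta subunit, had FPKM values of 11.7 and 15, 19 and 10.3, and 6.4 and 12, where the groups overlapped. Exons of Eif2b4 overlap those of Snx17 on the opposite strand over 204 bases, or 7.85% of its length, and whether reads were counted by strand is not stated.

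The 4 eIF2 kinases are Eif2ak1 (HRI), Eif2ak2 (PKR), Eif2ak3 (PERK) and Eif2ak4 (GCN2). None passed in either comparison, and the summed level of the class overlapped between groups, at 93.1 and 99.9, 83.3 and 115, and 81.5 and 88.7 CPM. Eif2ak1 had FPKM values of 7.76 and 6.86, 6.83 and 8.9, and 3.46 and 4.6 (adjusted P=0.212 and 0.177). Eif2ak2 had FPKM values of 0.287 and 0.865, 0.568 and 1.8, and 2.8 and 1.7, from 2 to 19 fragments per library, so its log2 fold change of 1.05 ± 0.49 is uncertain. Eif2ak3 and Eif2ak4 lay between an FPKM of 1.82 and 5.14 in all libraries.

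The eIF4 factors bind the cap and unwind the mRNA, and 1 of the 12 genes fell in each comparison. That gene, Eif4a3, is a helicase that also forms the core of the exon junction complex. Eif4a3 was at 208 and 216 FPKM in non-injection embryos, at 265 and 136 in PIASy-Mut embryos and at 53 and 30.3 in PIASy-WT embryos. The log2 fold change was -2.37 ± 0.41 relative to non-injection (adjusted P=0.0339) and -2.21 ± 0.41 against PIASy-Mut (adjusted P=0.0375). Its paralogs Eif4a1 and Eif4a2, the helicases of the cap complex itself, had FPKM values of 20 and 23.7, 20.1 and 17.2, and 17.4 and 20.7 for the first and of 34.7 and 28.2, 31.2 and 29.4, and 25.6 and 19.2 for the second. Neither passed (adjusted P=0.675 and 0.303 against non-injection). In windows of 50 bases, 28.4% of the Eif4a1 sequence occurs elsewhere, as do 13.6% of Eif4a2 and 16.5% of Eif4a3. The levels of these genes relative to each other are thus uncertain. Eif4a3 made up from 74.4% to 83.8% of the summed FPKM of the 3 genes in the other libraries and 55.2% and 43.2% in PIASy-WT, so its share was lower in both PIASy-WT libraries than in any other.

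The 4 cap-binding genes of the eIF4E family did not share 1 direction of level, and none of them passed limma. Eif4e, the general cap-binding factor, was at 214 and 200 FPKM in non-injection embryos, at 261 and 191 in PIASy-Mut embryos and at 164 and 156 in PIASy-WT embryos, with log2 fold changes of -0.37 ± 0.25 and -0.48 ± 0.25 and no call. Eif4e2, a cap-binding protein that represses translation, had FPKM values of 10.6 and 17.3, 16.9 and 9.95, and 4.53 and 3.83 and missed the threshold of limma (adjusted P=0.0739 and 0.0816), whereas by voom it was lower with adjusted P=0.0161 and 0.0214. Eif4e1b, the form made in oocytes, had FPKM values of 21.1 and 22, 17.2 and 32.6, and 59.2 and 51.3. Eif4e3 had FPKM values of 63.8 and 61.9, 38.5 and 86.2, and 123 and 107. For Eif4e1b and Eif4e3 both PIASy-WT libraries were above the other 4, and Eif5a was the third gene of which this held. Eif4e1b had a log2 fold change of 1.32 ± 0.35 (adjusted P=0.0731) and 1.18 ± 0.35 (adjusted P=0.0931), so it did not pass limma, whereas by voom it was higher with adjusted P=0.0203 and 0.0365. The values of Eif4e3 were 0.86 ± 0.39 and 0.98 ± 0.39 with adjusted P=0.216 and 0.175.

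Eif4e made up 69.1% and 66.4% of the summed FPKM of the 4 cap-binding genes in non-injection embryos, 78.2% and 59.7% in PIASy-Mut embryos and 46.7% and 49% in PIASy-WT embryos. The summed FPKM itself overlapped between the groups, at 309 and 301, 334 and 319, and 350.0 and 318. Eif4e1b made up from 5.15% to 10.2% in the other libraries and 16.9% and 16.1% in PIASy-WT, and no test was made on these shares. The 8 oocyte and maternal markers summed to 2217 and 2236 CPM in non-injection embryos, 1821 and 3578 in PIASy-Mut embryos and 5291 and 5928 in PIASy-WT embryos, and none of the 8 was at 0 in any library. Bmp15 made up 74.2% and 76.3% of that sum in PIASy-WT and from 55.1% to 66.5% elsewhere. Both PIASy-WT libraries lay above the other 4 for 2 of the 8 markers (Bmp15 and Oog1), below them for Zp3, and overlapped for the other 5. By limma, 1 of the 8 (Zp3) fell in each comparison and none rose, and their part in the Eif4e1b and Eif4e3 values was not tested. The 7 cumulus markers summed to 12.8 and 17.4 in PIASy-WT and from 5.13 to 10.7 elsewhere, and 1 of the 7 (Tnfaip6) was high enough to be tested and did not pass.

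The eIF4G genes encode the scaffold between cap and ribosome, and none of the 3 passed. Eif4g2, which initiates without the cap-binding protein, was the highest, with an FPKM of 84.9 and 80.5, 95.2 and 81.5, and 71.2 and 58.7. Eif4g1 had values of 10.1 and 10.2, 11.4 and 8.41, and 6.79 and 6.26, under the other libraries in both PIASy-WT libraries, with adjusted P=0.273 and 0.321. Eif4g3 was between 1.79 and 3.21 in all 6 libraries. Eif4b and Eif4h assist the helicase, and neither passed, with FPKM values between 8.94 and 15.8 for the first and between 0.94 and 5.76 for the second. The eIF4E-binding proteins hold Eif4e away from eIF4G. Eif4ebp1 had FPKM values of 3.34 and 7.65, 5.29 and 9.93, and 21.3 and 8.32, where the groups overlapped, Eif4ebp2 was between 1.19 and 2.14, and neither passed. Eif4enif1, the nuclear import partner of Eif4e, had an FPKM between 30.8 and 42.8 in all libraries.

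**Figure D3:**
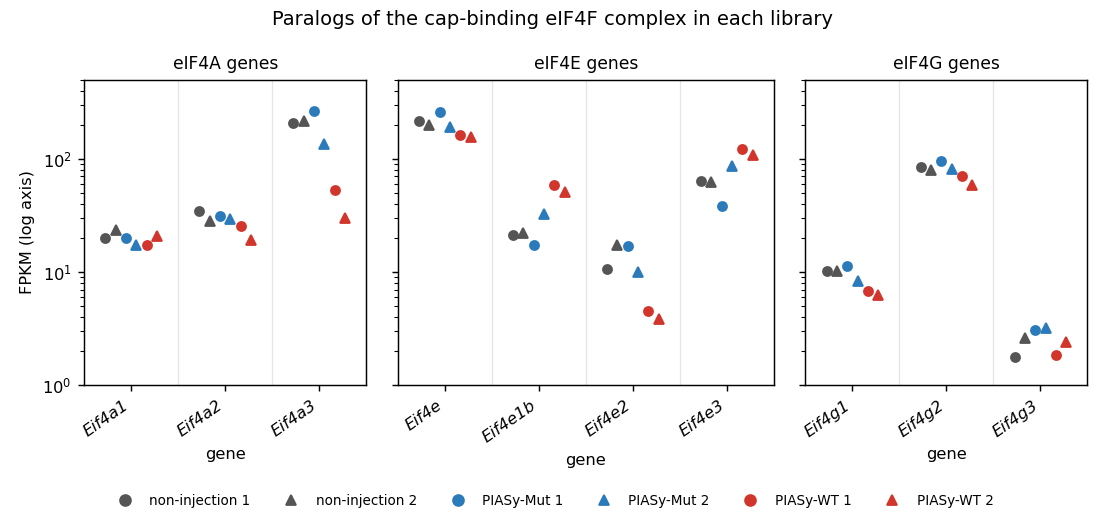
FPKM on a log axis of the eIF4A, eIF4E and eIF4G genes (x axis) in each library; grey is non-injection, blue PIASy-Mut and red PIASy-WT, and circles and triangles are libraries 1 and 2. Eif4a3 shows red points at 53 and 30.3 under all others, while the red points of Eif4e1b and Eif4e3 are above the rest and did not pass the test.

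eIF1 and eIF1A keep the scanning ribosome from starting at the wrong codon. Eif1 was the most abundant of the 68 genes, with an FPKM of 549 and 515, 507 and 510, and 475 and 472, and log2 fold changes of -0.17 ± 0.22 and -0.10 ± 0.22. Its near copy Eif1b had FPKM values of 86.7 and 102, 88.7 and 153, and 137 and 163 and did not pass (adjusted P=0.235 and 0.507). Eif1ad, named for a domain shared with eIF1A, had FPKM values of 26.4 and 25.8, 33.4 and 30.7, and 11.9 and 12.3. It fell by 1.33 on the log2 scale against PIASy-Mut (SE 0.24, adjusted P=0.0358) and had a log2 fold change of -1.05 relative to non-injection with adjusted P=0.0572. Eif1a, with an FPKM of 59.3 and 78.6, 69.7 and 53.4, and 32.2 and 31.4, missed the threshold of limma (adjusted P=0.0667 and 0.0935). By voom Eif1a was lower against non-injection (adjusted P=0.0273) and missed the threshold against PIASy-Mut (adjusted P=0.0597). Eif1ax, its X-linked copy, had values of 50.5 and 33.2, 35.5 and 32.7, and 30.8 and 22.5 (adjusted P=0.249 and 0.494). For Eif1, Eif1a, Eif1ad and Eif1ax both PIASy-WT libraries were under the other 4.

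The annotation holds a family of eIF1A relatives under other symbols. Among the genes of the table, 16 outside the rule encode a protein at least 50% identical to that of Eif1a over at least 80% of its length, and all 16 lie on chromosome 12 between 87494721 and 88324026 of mm10. Their proteins are from 91.7% to 95.1% identical to that of Eif1a, against 98.6% for Eif1ax. Together they gave 3848 and 3087 CPM in non-injection embryos, 2725 and 4203 in PIASy-Mut embryos and 2272 and 1662 in PIASy-WT embryos. In comparison, Eif1a gave from 90.5 to 226 in any library. The relatives thus held more fragments than both eIF1A genes of the rule in every library. From 13.2% to 100% of their sequence in windows of 50 bases is shared with other transcripts, and reads that mapped to several places were not counted, so values of single relatives are uncertain.

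Of the 16 relatives, all tested, 4 fell against non-injection, 3 fell against PIASy-Mut and none rose, against 5.76% and 6.01% of all genes that fell and 1.03% and 0.82% that rose. Gm2056 had FPKM values of 376 and 382, 316 and 359, and 59 and 114, with a log2 fold change of -2.19 ± 0.35 relative to non-injection (adjusted P=0.0311) and -2.02 ± 0.35 against PIASy-Mut (adjusted P=0.0322). Gm2075 (adjusted P=0.0405 and 0.0379) and Gm5788 (adjusted P=0.0491 and 0.0414) also passed in both. Gm16368, with 8 and 26 fragments in PIASy-WT, had a log2 fold change of -2.77 ± 0.58 relative to non-injection (adjusted P=0.0462) and -2.03 ± 0.58 against PIASy-Mut (adjusted P=0.0879). The PIASy-WT libraries were under the other 4 for 11 of the 16, and for 24.4% of all genes. At the other end, Gm2035 had FPKM values of 116 and 85.4, 71.3 and 119, and 113 and 102, and Gm5039 of 349 and 257, 195 and 447, and 331 and 214, where the groups overlapped. Other members of the family, such as Gm21936 with 647 and 478, 388 and 688, and 286 and 246, were lower in both PIASy-WT libraries and did not pass (adjusted P=0.115 and 0.142).

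**Figure D4:**
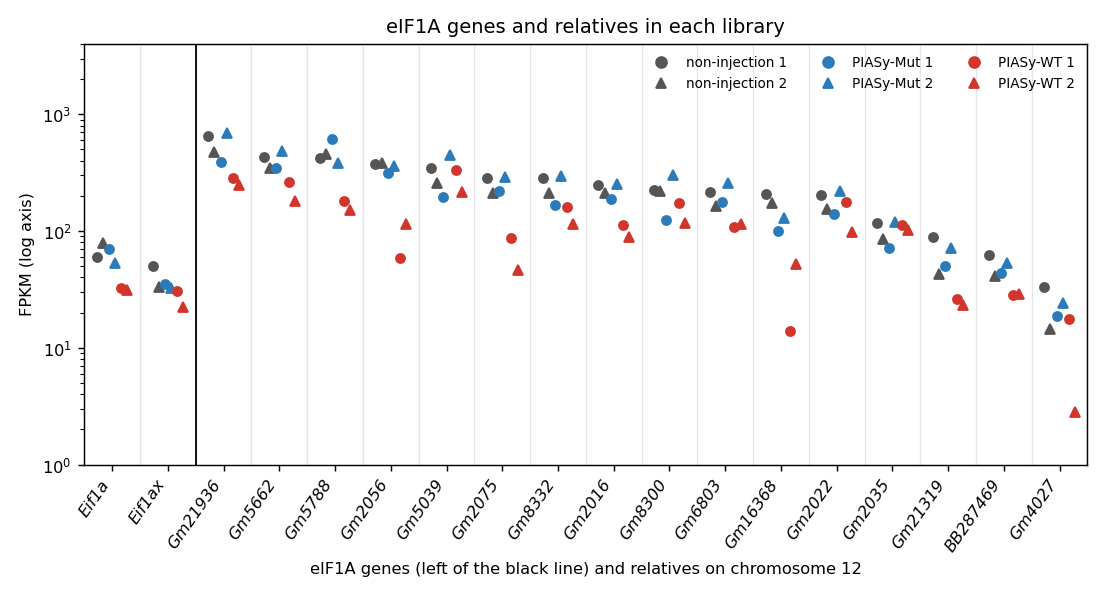
FPKM on a log axis of Eif1a and Eif1ax (left of the black line) and of the 16 relatives on chromosome 12 (x axis, ordered by their level in non-injection 1) in each library; grey is non-injection, blue PIASy-Mut and red PIASy-WT, and circles and triangles are libraries 1 and 2. For Gm2056 the red points at 59 and 114 lie far under the others, while for Gm2035 and Gm5039 the colours overlap.

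The late initiation factors were abundant, and 1 of the 5 genes of the eIF5 and eIF6 class fell in each comparison. Eif6, which keeps the large ribosomal subunit from joining too early and takes part in its assembly, was at 63.5 and 98.5 FPKM in non-injection embryos, at 114 and 59.4 in PIASy-Mut embryos and at 24 and 15.8 in PIASy-WT embryos. It fell by 1.97 on the log2 scale (SE 0.42, adjusted P=0.0488) and fell by 2.02 (adjusted P=0.0469). Eif5, which stimulates the GTPase of eIF2, had FPKM values of 228 and 256, 293 and 204, and 163 and 205, where PIASy-WT overlapped with PIASy-Mut. Eif5b, the GTPase of subunit joining, had values of 33.5 and 32.2, 43.9 and 24.8, and 20 and 15.9 and did not pass (adjusted P=0.169 in both). Eif5a, which carries the modified residue hypusine and helps stalled ribosomes, had FPKM values of 196 and 237, 222 and 230, and 288 and 277. Its log2 fold changes were 0.39 ± 0.23 and 0.32 ± 0.23 and did not pass. The copy Eif5a2 was between 7.15 and 16.9 in all libraries.

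Among the elongation factors, 1 of the 5 eEF1 genes tested fell, against non-injection. Eef1a1 delivers aminoacyl-tRNAs and was the highest of the class, with an FPKM of 49.7 and 67.7, 95.6 and 79.2, and 50.2 and 68.7, and log2 fold changes of 0.02 ± 0.29 and -0.56 ± 0.29. As 40.4% of its sequence in windows of 50 bases occurs elsewhere, its level is uncertain. Eef1d, a guanine exchange subunit, had FPKM values of 13.8 and 9.45, 10.8 and 7.78, and 2.69 and 2.8, and fell by 1.73 on the log2 scale against non-injection (SE 0.35, adjusted P=0.0442), with adjusted P=0.0621 against PIASy-Mut. Eef1b2, the other exchange subunit, and Eef1e1, a partner of the tRNA synthetase complex, had log2 fold changes between -0.52 and -0.26 and did not pass. Eef1g had from 2 to 8 fragments per library, and 44.2% of its sequence in windows of 50 bases occurs elsewhere. Eef2, the translocation factor, had FPKM values of 7.94 and 13.6, 13.1 and 12.1, and 7.49 and 4.71 and did not pass (adjusted P=0.273 and 0.167).

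Of the 5 tested genes for enzymes that modify the elongation factors, 2 fell against non-injection and 1 against PIASy-Mut. Eef1akmt1, a lysine methyltransferase of eEF1A, was at 48.8 and 91.5 FPKM in non-injection embryos, at 98.2 and 69.1 in PIASy-Mut embryos and at 19.1 and 8.27 in PIASy-WT embryos. The log2 fold change was -2.31 ± 0.49 (adjusted P=0.0469) and -2.61 ± 0.49 (adjusted P=0.0375), with no overlap, and 24 and 9 fragments stood behind the PIASy-WT values. Eef1akmt4 had FPKM values of 21.4 and 43.4, 35.5 and 9.98, and 3.28 and 2.16, and its log2 fold change of -3.10 ± 0.64 relative to non-injection (adjusted P=0.0454) was the largest of the 65 genes in size. Only 7 and 4 fragments stood behind the PIASy-WT values, 28.9% of its sequence occurs elsewhere, and 31.3% of its length is shared with exons of Ece2 on the same strand. Against PIASy-Mut it did not pass (log2 fold change -2.44, adjusted P=0.0727). Eef1akmt2, with FPKM values of 14.5 and 13, 8.79 and 9.76, and 6.42 and 4.93, did not pass, and Eef1akmt3 had from 1 to 5 fragments per library. Eef2k, the kinase that switches eEF2 off, had FPKM values of 3.86 and 5.25, 2.09 and 3.87, and 7.03 and 4.93 and did not pass (adjusted P=0.627 and 0.249).

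The classes held different shares of each library. The 68 genes together gave 11223 and 11912 CPM in non-injection embryos, 13434 and 10493 in PIASy-Mut embryos and 8370 and 8154 in PIASy-WT embryos, with both PIASy-WT values the lowest. The eIF2 class gave 969 and 1081, 1265 and 876, and 489 and 559, and the eIF4 factors 3288 and 3244, 3813 and 3034, and 2624 and 2317. For the eIF5 and eIF6 class the values were 2552 and 2970, 3302 and 2382, and 2105 and 2317, with PIASy-WT 2 close to PIASy-Mut 2. The eEF1 class gave 351 and 392, 481 and 404, and 250 and 334. In the eIF4E-binding class and the eIF2 kinases PIASy-WT overlapped with the other groups. Library 2 was below library 1 for 24 of the 65 genes within non-injection (42.1% of all genes), for 43 within PIASy-Mut (48%) and for 38 within PIASy-WT (46.1%).

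**Figure D5:**
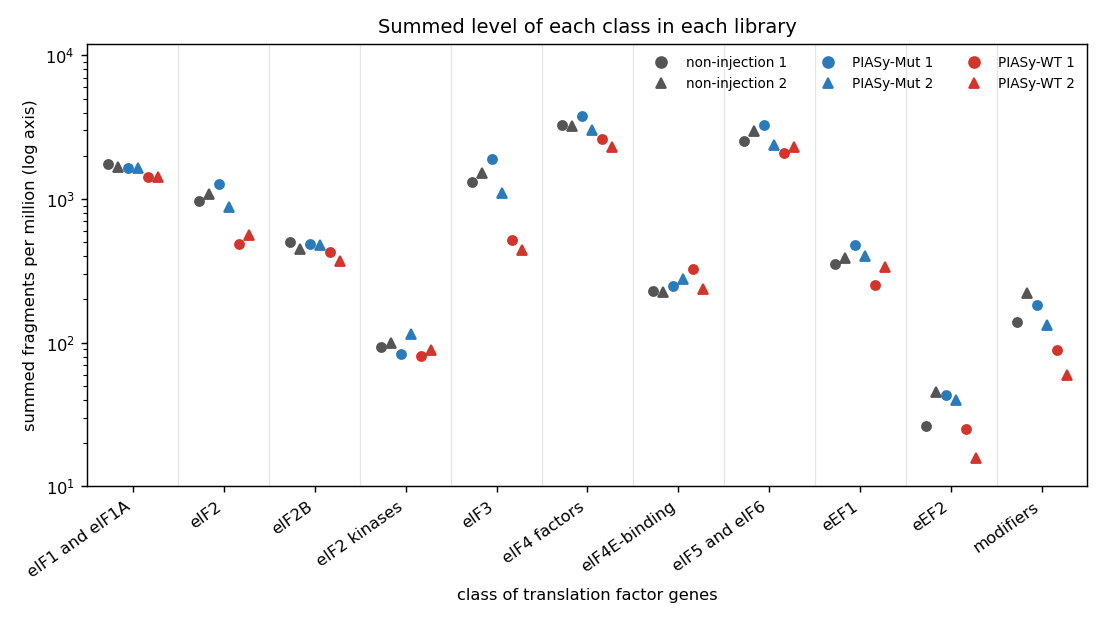
Summed CPM (log axis) of each class of translation factor genes (x axis) in each library; grey is non-injection, blue PIASy-Mut and red PIASy-WT, and circles and triangles are libraries 1 and 2. The red points of eIF3, at 515 and 445, lie farthest under the others, while those of the eIF2 kinases and the eIF4E-binding class overlap with them.

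Other genes that act with these factors were taken from 5 lists, of which 43 genes are in the table and 39 were tested. Of the 39, 5 fell in each comparison with PIASy-WT and none rose, against 5.76% and 6.01% of all genes that fell. Denr and Mcts1, partners in removing ribosomes after termination, were 2 of the 8 tested in the list of termination and recycling. Denr had FPKM values of 87.8 and 76.6, 105 and 61.7, and 15.4 and 19 (log2 fold change -2.20 ± 0.32, adjusted P=0.0293, against non-injection). For Mcts1 the values were 16.8 and 29.3, 27.1 and 32.1, and 2.88 and 2.22 (log2 fold change -2.72 ± 0.36, adjusted P=0.0251). Only 6 and 4 fragments stood behind the PIASy-WT values of Mcts1. Mcts2, of the same list, had 65.6 and 165, 183 and 110, and 55.1 and 39.8 and did not pass (adjusted P=0.1995). Pabpc1, the general poly(A)-binding protein, was the only 1 of 13 tested poly(A) tail and cap regulators to fall, with an FPKM of 17 and 18.4, 18.1 and 11.8, and 3.35 and 3.19 (adjusted P=0.0293). In the eIF2 pathway list 1 of 10 fell. It was Ppp1r15a, the phosphatase subunit that reverses eIF2 phosphorylation, with an FPKM of 62.2 and 72.9, 95 and 52.7, and 12.1 and 10.7 (adjusted P=0.0268). Dhps, the enzyme that starts the hypusine modification of eIF5A, had FPKM values of 18 and 28.2, 29.2 and 19.3, and 3.25 and 1.5 (adjusted P=0.0293). It had 10 and 4 fragments in PIASy-WT and was 1 of 3 tested in the list of hypusine and selenocysteine. None of the 5 tested genes of the mTOR and eEF2K axis passed, and all 5 genes that fell against non-injection also had an adjusted P of at most 0.0328 against PIASy-Mut.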

How the data were processed

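The 6 libraries of 2-cell embryos (3 groups of 2) were measured by RNA-seq. The authors amplified cDNA with SMART-Seq v4 (11 cycles), made Nextera XT libraries (13 cycles), trimmed reads with Trim Galore, aligned them with STAR to the mm10 genome and used featureCounts for uniquely mapped fragments per gene. The versions, the annotation release and the strand setting are not given in the sources used here. The authors deposited FPKM values, normalised for gene length and for the fragments assigned to genes. Taken times gene length and over what 1 fragment is worth in that library, 100% of them were whole within 0.01, which gave the fragment counts and depths.

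Groups were taken from the labels. limma 3.58.1 in R 4.3.3 (lmFit, then eBayes with a trend) was run on log2(FPKM + 1) of all 6 libraries, without a block, for the 16100 genes that reached an FPKM of 1 in 2 or more libraries. The residual degrees of freedom were 3 and the prior degrees of freedom 3.12. The threshold was an adjusted P of at most 0.05. An exact two-sided permutation test of 2 libraries against 2 cannot go below P=0.333 and was not used. On simulated counts with a known set of genes lowered in PIASy-WT, the fit called most of that set, but the share of calls that were genes left unchanged was above the threshold, so single calls are less certain than their adjusted P. Differential testing by the authors used DESeq2, whose output was not analysed here.

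The genes, classes and lists were chosen with earlier results of these data known. The rule for naming genes took the genes that passed in a comparison with PIASy-WT, the most abundant gene of each class and the paralogs of eIF1, eIF1A, eIF2 gamma, the eIF2 kinases, eIF3j, eIF4A, eIF4E, eIF4G, the eIF4E-binding proteins, eIF5A, eEF1A, eEF2 and Eef2k, with Pias4. Other genes of the classes were named after their values were seen. eIF1A relatives were found with Biopython 1.88 by aligning translated coding sequences of GENCODE M21, whose gene coordinates are those of mm10. As alternatives, the pseudocount, the filter, the scaling and the eBayes options were changed, and the fit was run with only the groups compared, a replicate block, voom on recovered fragments and leaving out each library, and a filter of 10 fragments in 2 libraries was added after seeing the data.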

Additional observations from a re-analysis of the deposited data

How the results depend on the processing

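The number of translation factor genes lower in PIASy-WT depended on the settings. The share of all genes that passed, given in parentheses, moved with the counts. Against non-injection (14 lower, 5.76%), a pseudocount of 0.1 gave 9 (4.8%), a pseudocount of 5 gave 8 (4.4%), no filter 0 (0.553%), quantile normalization 8 (4.34%), median centring 7 (3.98%), eBayes without a trend 1 (1.59%), voom with quantile normalization 0 (0%) and the added filter of 10 fragments 24 (17.7%). Against PIASy-Mut (10 lower, 6.01%), no filter gave 1 (0.873%), a filter of FPKM 5 gave 19 (17.9%), quantile normalization 5 (3.04%), median centring 4 (2.98%), eBayes without a trend 2 (2.88%), only the groups compared 0 (0%), voom 20 (11.6%), voom with quantile normalization 0 (0%) and the added filter 22 (17.6%). Without a filter more genes share the adjustment, and the causes of the other changes were not tested. Where these counts were 0, from 26 to 29 of the genes were lower at an unadjusted P under 0.05, against 10.4% to 16.2% of all genes. Genes higher in PIASy-WT numbered 0 in both comparisons, and became 1 (Eif4e1b) against non-injection with a filter of FPKM 5, with voom and with the added filter (4.01%, 5.11% and 5.16% of all genes), 2 with only the groups compared (4.53%), and 1 (Eif4e1b) against PIASy-Mut with voom and with the added filter (3.37% and 3.82%).

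Leaving out each library in turn gave from 0 to 21 genes lower and from 0 to 2 higher against non-injection, and from 0 to 20 lower and from 0 to 2 higher against PIASy-Mut, while the share of all genes lower ran from 0% to 12.3% and from 0% to 13.2%. The share of all genes higher in these fits ran from 0% to 5.84% against non-injection, the latter without PIASy-Mut 1. Against PIASy-Mut it ran from 0% to 6.63%, the latter without PIASy-Mut 2. Between PIASy-Mut and non-injection every alternative gave 0 in both directions. The labels do not say whether replicate numbers pair the libraries, and the main fit did not pair them. Deviations of same-numbered libraries correlated at 0.00368, 0.0851 and 0.0637. Such values cannot show whether the libraries were handled in pairs. With the replicate block, 7 genes were lower against non-injection (4.47% of all genes), 6 against PIASy-Mut (4.96%) and 0 higher in both. Quantile normalization and median centring moved the median of all genes from 0.01 to 0.12 and 0.12 against non-injection and from -0.03 to 0.11 and 0.15 against PIASy-Mut, and under them the median of the 65 genes was -0.52 and -0.60, and -0.36 and -0.44. Depth limits the 11 tested genes with under 10 fragments in at least 1 library, of which Eef1akmt1 and Eef1akmt4 were among the genes that fell.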
